A study of Homo sapiens with 4 samples.

Results

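The genes CD274, PVR, CD276, CD46, CD55 and CD59, whose surface proteins can shield a tumour cell from immune attack, were described across 4 libraries of MDA-MB-231, a cell line from a human breast cancer of the triple-negative type. The 6 genes were chosen by symbol from a written list, all 6 were present in every gene table, and 11288 genes were listed in all 4 libraries. The first pair of libraries held RNA immunoprecipitated by anti-PABPC1 antibody on magnetic beads (PABPC1 pulldown; PABPC1 is the poly(A)-binding protein that coats mRNA tails in the cytoplasm), and RNA of the lysate (input). The second pair held RNA of cells transfected with a Smart Silencer for LINC00882, a long non-coding RNA (si_LINC00882, also called an siRNA in the labels) and RNA of cells given the negative control (si_NC). All cells were grown in L15 medium with serum. The protocol text is shared by all samples, the treatment labels of the first pair name no transfection, and no IgG pulldown was analysed here. The level of LINC00882 was not analysed here and its silencing was not checked. Each group was 1 library of 1 cell line, so no test was possible, no spread between replicates exists, and the differences below are descriptions of these libraries. In bulk RNA, fewer cells with a transcript and less of it per cell cannot be told apart.

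The genes fall into 2 kinds of shield. CD274 (PD-L1) and CD276 (B7-H3) encode members of the B7 family. PD-L1 binds PD-1 on T cells and restrains them, and B7-H3 is a B7 protein, common on tumours, whose receptor is not settled. PVR (CD155) encodes a nectin-like adhesion protein that binds the inhibitory receptor TIGIT and the activating receptor DNAM-1 on NK and T cells. The other members keep complement from attacking the cell that carries them. CD46 encodes a cofactor for the cleavage of deposited C3b and C4b, CD55 (decay-accelerating factor) breaks up the C3 and C5 convertases, and CD59 stops assembly of the membrane attack complex. CD55 and CD59 are held in the membrane by a glycosylphosphatidylinositol (GPI) anchor, while the others span the membrane.

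Levels are the authors' deposited FPKM, a fragment count divided by transcript length and by the library's mapped total, so genes can be ordered within a library. Sequencing depth is not stated in the labels or files. The summed FPKM ran from 197844 to 338894 over the libraries, and mitochondrially encoded mRNAs took 3.08% of it in the pulldown, 47.3% in input, 19.3% in si_LINC00882 and 16.3% in si_NC. Each library is a table of its own, so levels compared between libraries carry this difference, within the pulldown pair as well as across the pairs. All 6 markers fixed for this cell line and the mesenchymal state were listed, among them VIM at 155 to 367 FPKM and AXL at 184 to 244 FPKM. Their sum was 895 FPKM in the pulldown, 1025 in input, 971 in si_LINC00882 and 976 in si_NC. Of 10 luminal and epithelial markers 6 were listed, with sums of 171 FPKM in the pulldown, 147 in input, 147 in si_LINC00882 and 154 in si_NC. ESR1, PGR and CDH1 were among those not listed in any library. Of 8 leukocyte markers 3 were listed, with sums of 26.5 FPKM in the pulldown, 8.88 in input, 13.8 in si_LINC00882 and 9.26 in si_NC. These sums were almost wholly CD68, and PTPRC was not listed in any library. The part of other cells in the results below was not tested. Of 8 endothelial and fibroblast markers 2 were listed, with sums of 2.30 FPKM in the pulldown, 0.762 in input, 1.31 in si_LINC00882 and 1.49 in si_NC.

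Upstream sequences of CD274, PVR and CD59 are shown because PVR and CD59 were the members past 2-fold between pulldown and input, while CD274 is the member best known as an interferon target. Each is the 250 bases before the annotated start in RefSeq (GRCh38.p14, for CD59 the farthest upstream of 4 windows), written 5′ to 3′ along the gene's strand. Capitals mark letters that match a searched motif. They lie at chr9:5450292-5450541 on the plus strand, chr19:44643660-44643909 on the plus strand and chr11:33736480-33736729 on the minus strand.
CD274: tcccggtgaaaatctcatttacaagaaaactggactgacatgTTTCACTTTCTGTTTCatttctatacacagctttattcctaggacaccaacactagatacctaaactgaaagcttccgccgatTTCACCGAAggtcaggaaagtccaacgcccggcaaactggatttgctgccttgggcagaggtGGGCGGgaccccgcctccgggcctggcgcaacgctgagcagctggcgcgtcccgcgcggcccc
PVR: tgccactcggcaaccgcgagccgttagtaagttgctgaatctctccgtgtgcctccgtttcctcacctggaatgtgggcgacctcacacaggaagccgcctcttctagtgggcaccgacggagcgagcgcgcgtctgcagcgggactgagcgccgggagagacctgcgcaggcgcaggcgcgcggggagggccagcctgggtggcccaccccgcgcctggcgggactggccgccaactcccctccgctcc
CD59: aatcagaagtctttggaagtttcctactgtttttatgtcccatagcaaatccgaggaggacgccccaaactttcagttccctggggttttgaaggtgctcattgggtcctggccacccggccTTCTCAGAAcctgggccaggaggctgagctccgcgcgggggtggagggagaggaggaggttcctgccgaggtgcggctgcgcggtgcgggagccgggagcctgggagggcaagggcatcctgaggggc

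In all 6 motifs were searched on both strands: GAAA and GAAA with 2 bases between them (the core of the interferon-stimulated response element), TTC and GAA with 3 bases between them (the gamma-activated site bound by STAT dimers), GGGCGG (GC box), GGGA and TTTCC with 1 base between them (NF-kB), TGA and TCA with 1 base between them (AP-1), and TATAAA. The CD274 window held the interferon element at overlapping matches starting at positions 43 and 49, the gamma-activated site at position 126 and GGGCGG at position 188, counted from 1 at the 5′ end. The interferon element was found in 3.02% of 35116 promoter windows of the same length and in no window of the other members. The gamma-activated site was found in 6.57% of windows, and the CD59 window shown held it at position 123. The PVR window held none of the 6 motifs. GGGCGG was found in 42.6% of windows and also in windows of CD276, CD46, CD55 and CD59. These matches describe letters in these windows and are not evidence of binding.

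PVR was the member whose level differed most between libraries. It stood at 39.9 FPKM in the PABPC1 pulldown and 1.44 FPKM in input, and at 15.4 FPKM in si_LINC00882 and 26.2 FPKM in si_NC. The input library was the low one, and the other 3 lay far above it. CD59 stood at 21.9 FPKM in the pulldown against 7.98 in input, and at 11.7 in si_LINC00882 against 9.84 in si_NC, so for CD59 the pulldown was the high library.

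The other members differed by less than 2-fold between libraries in FPKM as deposited. CD55 stood at 16.7 FPKM in the pulldown against 12.8 in input, and at 16.6 in si_LINC00882 against 18.2 in si_NC. CD46 stood at 9.47 FPKM in the pulldown against 12.5 in input, and at 9.32 in si_LINC00882 against 11.4 in si_NC. As deposited, the extremes were 1.43-fold apart for CD55 and 1.34-fold for CD46. CD276 stood at 3.93 FPKM in the pulldown against 5.65 in input, and at 3.11 in si_LINC00882 against 5.16 in si_NC. CD274 stood at 2.52 FPKM in the pulldown against 4.08 in input, and at 2.44 in si_LINC00882 against 3.01 in si_NC. For CD274, CD276 and CD46 input was the highest library as deposited and si_LINC00882 the lowest, by 1.03-fold under the pulldown for CD274 and 1.02-fold for CD46. These spreads depend on the scaling. A further scale, applied after the levels were seen, left out mitochondrial mRNAs and raised the other genes to each library's own summed FPKM. It multiplied levels by 1.03 in the pulldown, 1.90 in input, 1.24 in si_LINC00882 and 1.19 in si_NC. The summed FPKM stayed unequal (338894 in input and 197844 in the pulldown), and the rescaled spreads carry that difference. Scaling to a common total was not done. Rescaled in this way, CD274 spanned 2.60 to 7.74 FPKM (2.98-fold), CD276 3.85 to 10.7 (2.78-fold) and CD46 9.78 to 23.7 (2.43-fold). CD55 then spanned 17.3 to 24.2 FPKM (1.40-fold). Input was again the highest library for CD274, CD276 and CD46, while the lowest was the pulldown for CD274 and CD46 and si_LINC00882 for CD276.

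**Figure D1:**
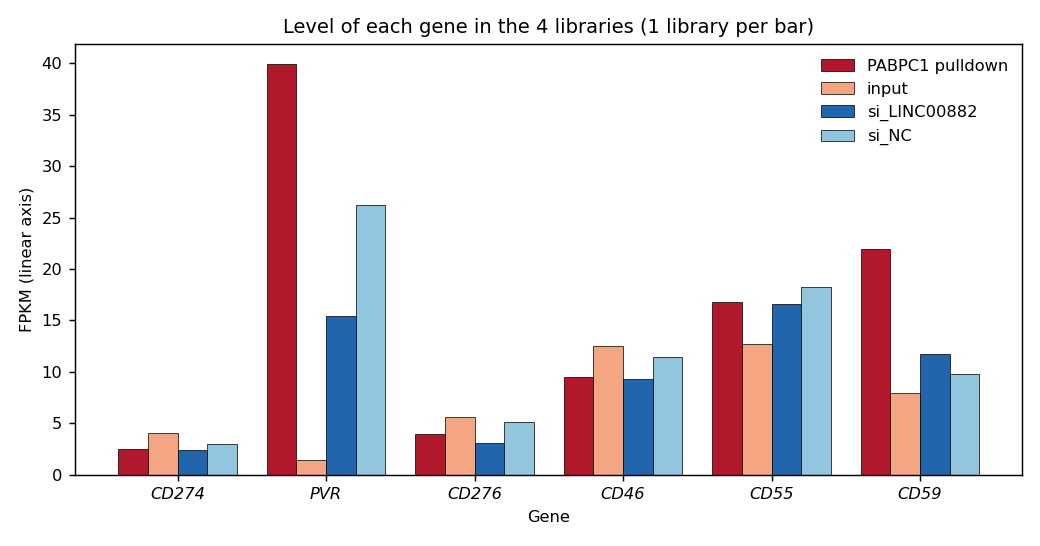
FPKM (linear axis from 0) of each gene in the PABPC1 pulldown, input, si_LINC00882 and si_NC libraries, 1 library per bar and no error bars because no group had a replicate. PVR spans 1.44 to 39.9 FPKM, while CD46 spans 9.32 to 12.5 FPKM as deposited.

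Over the 4 libraries the level of PVR had a range of 4.06 on the log2(FPKM + 1) scale, a wider range than 99.8% of the 10902 genes with at least 1 FPKM in some library. CD59 had a range of 1.35, wider than 79.3% of genes. The ranges of CD276 (0.69), CD274 (0.56), CD55 (0.48) and CD46 (0.39) were all below the median range of 0.87, and 10.3% of genes had a smaller range than CD46. On the rescaled levels, which carry the unequal library totals, the median range of 11075 genes was 0.89. PVR had a range of 3.49 on that scale, wider than 99.5% of genes. There CD274 (1.28), CD276 (1.27) and CD46 (1.20) lay above the median, CD59 (0.89) at it and CD55 (0.46) below it.

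Within each library the order CD55, CD46, CD276, CD274 from high to low was found in 4 of 4 libraries. The distance between neighbours in that order varied. CD55 was 1.77 times CD46 in the pulldown, 1.02 times in input, 1.79 times in si_LINC00882 and 1.59 times in si_NC, so in input the pair stood at nearly equal levels. CD46 was 2.22 to 2.99 times CD276, and CD276 was 1.27 to 1.71 times CD274. Such ratios within a library do not depend on how the library was scaled, and with no replicates none of them can be set against an error.

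PVR and CD59 took different places among these 4 genes from library to library. PVR ranked highest of the 6 in the pulldown and in si_NC, next after CD55 in si_LINC00882, and lowest in input. CD59 was 1.31 times CD55 in the pulldown, 0.626 times in input, 0.704 times in si_LINC00882 and 0.539 times in si_NC. PVR made up 42.2% of the summed FPKM of the 6 genes in the pulldown and 3.25% in input, and 26.3% in si_LINC00882 and 35.5% in si_NC. The 3 checkpoint ligand genes summed to 46.3 FPKM in the pulldown and 11.2 in input, and to 21.0 in si_LINC00882 and 34.4 in si_NC. The 3 complement regulator genes summed to 48.2 FPKM in the pulldown and 33.3 in input, and to 37.7 in si_LINC00882 and 39.5 in si_NC. On the rescaled levels that order was turned for the complement regulator genes, with 49.7 FPKM in the pulldown and 63.1 in input. It was kept for the checkpoint ligand genes, with 47.8 FPKM in the pulldown and 21.2 in input. That scale left the summed FPKM larger in input than in the pulldown, and the order on a common total was not tested. Among all listed genes of its library, CD274 stood above 24.0% in the pulldown and above 50.3% in input, and PVR stood above 91.6% in the pulldown and above 26.7% in input.

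The first comparison asked which transcripts were more abundant in the PABPC1 pulldown than in the lysate. Ratios are given as log2 of (FPKM + 1) over (FPKM + 1), which understates the difference of low genes, and a gene is counted at 2-fold or more (1 or more on the log2 scale, higher or lower) among genes that reached 1 FPKM in one of the libraries compared. Of the 6 members 2 were at least 2-fold higher in the pulldown, where 19.6% of all 10856 genes were, and none was at least 2-fold lower, where 2.37% of all genes were. The higher ones were PVR, with a log2 ratio of 4.06 (27.6-fold in FPKM), and CD59, with 1.35 (2.75-fold). Of all genes, 99.95% had a lower ratio than PVR and 90.5% a lower one than CD59.

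The other members lay at or below the ratio of the typical gene, whose median was 0.47. CD55 had a log2 ratio of 0.37 and lay close to it. CD46 (-0.37), CD276 (-0.43) and CD274 (-0.53) had a lower level in the pulldown than in input, and for CD274 7.69% of all genes had a lower ratio. The median of the 6 members was 0.00012. Mitochondrial mRNAs held a far larger share of input than of the pulldown. With both libraries rescaled without those mRNAs, input was raised 1.90-fold and the pulldown 1.03-fold, and their totals stayed unequal. How the members stand on a common total was not tested. On the rescaled levels, which carry the unequal totals, the median of all genes moved to -0.27. The log2 ratios were then -1.28 for CD274, -1.21 for CD276 and -1.20 for CD46, past 2-fold lower, 0.55 for CD59, no longer past 2-fold, and -0.46 for CD55. Past 2-fold were then 1 member higher, PVR, where 6.19% of all 11143 genes were, and 3 members lower, where 15.5% of all genes were. On that scale, where input kept the larger total, lower was also the more common direction among all genes. As deposited the more common direction was higher (19.6% of all genes, against 2.37% lower). Centred on the median of all genes, CD59 had a log2 ratio of 0.89 and PVR was the only member past 2-fold, where 7.39% of all genes were higher and 7.65% lower.

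PVR and CD59 differed in which library stood apart. PVR in input lay 10.7-fold below the next lowest library, and 33 of 10902 genes (0.303%, PVR included) lay at least as far below on the FPKM + 1 scale, a comparison made after these values were seen. Input was the lowest library for 54.6% of those genes. CD59 in the pulldown lay 1.87-fold above the next highest library, and 291 genes (2.67%) lay at least as far above, while the pulldown was the highest library for 43.6% of genes. The rescaled levels carry the unequal library totals. On them PVR in input lay 6.97-fold below the next lowest library, and input was the lowest library for 26.6% of genes. CD59 in the pulldown then lay 1.49-fold above the next highest library, and the pulldown was the highest for 15.3% of genes. Over si_NC, a library of another treatment and another table, the pulldown held CD59 at a log2 ratio of 1.08, where 7.16% of genes were at least 2-fold higher. PVR over si_NC had a log2 ratio of 0.59 and was not past 2-fold. The other members lay between -0.32 and -0.12 in that comparison, which shares the pulldown library with the first.

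By RefSeq spans PVR overlaps CEACAM19, which stood at 1.32 FPKM in the pulldown against 0.269 in input, and at 0.983 in si_LINC00882 against 0.629 in si_NC. How fragments were divided between the genes, and whether strand was used, is not stated in the labels or files. The levels of CEACAM19 were below those of PVR in all 4 libraries. By RefSeq spans none of the other 5 members overlapped a listed gene.

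The second comparison asked how the members stood after LINC00882 silencing. None of the 6 members was at least 2-fold different between si_LINC00882 and si_NC, where 2.01% of all 10478 genes were (0.859% higher and 1.15% lower). PVR had a log2 ratio of -0.73, 1.70-fold lower in FPKM in si_LINC00882, and 2.38% of all genes had a lower ratio. CD276 had a log2 ratio of -0.58, 1.66-fold lower, and 3.72% of genes had a lower ratio. Both lay outside the central 90% of genes, which ran from -0.50 to 0.47. CD46 (-0.27), CD274 (-0.22) and CD55 (-0.13) lay inside it, and CD59 (0.23) was the only member at a higher level in si_LINC00882. Of the 6 members 5 were below 0, as were 51.1% of all genes, and the members' median was -0.25 against -0.0056 for all genes.

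The input library, of other handling, did not place PVR near si_NC. Input held PVR at 18.2-fold less FPKM than si_NC and 10.7-fold less than si_LINC00882, so the log2 ratio of si_LINC00882 was 2.75 over input (19.1% of genes were at least 2-fold higher there) and -0.73 over si_NC. The log2 ratio of input over si_NC was -3.48 for PVR, where 19.2% of genes were at least 2-fold lower and 0.238% had a lower ratio. For CD276 it was 0.11 and for CD46 0.12. At least 2-fold differences between input and si_NC were found at 25.1% of genes, against 2.01% between si_LINC00882 and si_NC.

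**Figure D2:**
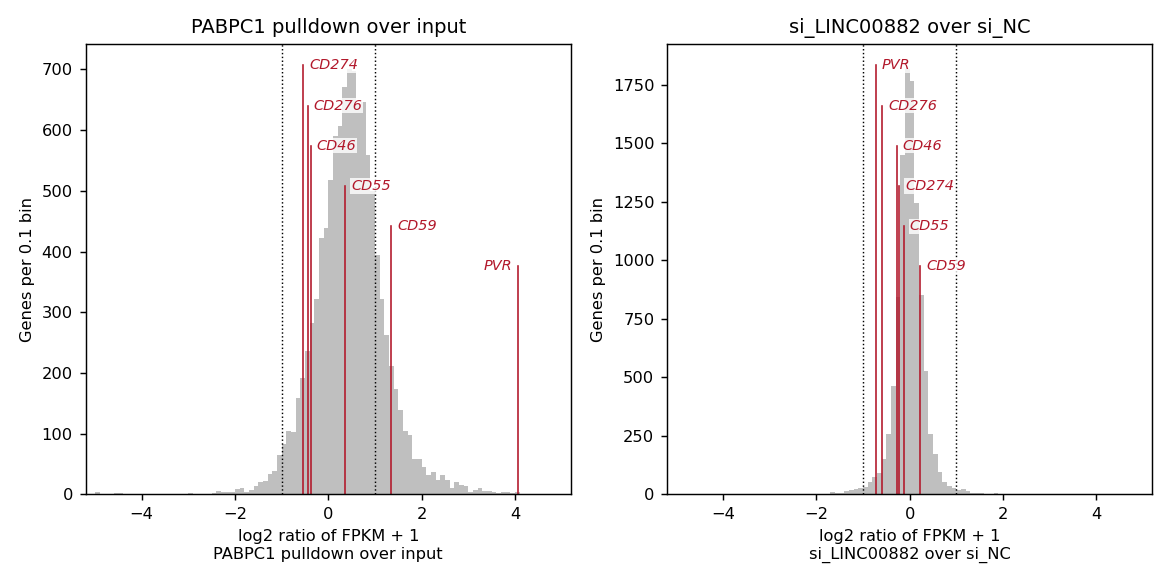
Histograms of the log2 ratio of FPKM + 1 over all genes compared (grey, genes per bin of 0.1, values beyond 5 drawn at 5), for PABPC1 pulldown over input on the left and si_LINC00882 over si_NC on the right, with red lines at the 6 genes and dotted lines at 2-fold. PVR lies at 4.06 on the left and at -0.73 on the right, and line heights only separate the names.

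Other genes of the same families and pathways were taken from lists written by known function. Their counts in the pulldown pair stand against 19.6% of all genes higher and 2.37% lower as deposited. The same shares were 6.19% higher and 15.5% lower when rescaled without mitochondrial mRNAs, with library totals left unequal. Centred on the median of all genes, they were 7.39% higher and 7.65% lower. Of 8 measured B7 and butyrophilin family genes 3 were at least 2-fold higher in the pulldown and none lower (median log2 ratio 0.78), with 2 higher when rescaled and 1 when centred, and none of 6 was past 2-fold in si_LINC00882 (median 0.061). BTN2A1, a butyrophilin involved in gamma delta T-cell recognition, stood at 12.8 FPKM in the pulldown against 4.01 in input, and at 15.2 in si_LINC00882 against 15.1 in si_NC. PDCD1LG2, the other PD-1 ligand and named after its values were seen, stood at 2.24 FPKM in the pulldown against 2.62 in input, and at 3.88 in si_LINC00882 against 4.54 in si_NC. Like CD274 it was lower in the pulldown than in input and lower in si_LINC00882 than in si_NC, by small amounts.

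Of the 4 measured nectins and nectin-like genes, relatives of PVR, 1 was at least 2-fold higher in the pulldown (median 0.81), with 0 when rescaled or centred, and none was past 2-fold in si_LINC00882 (median -0.045). That gene was CADM4, an adhesion molecule, at 5.67 FPKM in the pulldown and 2.26 in input. NECTIN2, which encodes another ligand of TIGIT and DNAM-1, stood at 42.6 FPKM in the pulldown against 20.9 in input, and at 42.7 in si_LINC00882 against 33.2 in si_NC. Its log2 ratio in the silencer pair was 0.36, opposite in sign to that of PVR. NECTIN3 stood at 7.80 FPKM in the pulldown against 5.84 in input, and at 7.02 in si_LINC00882 against 9.70 in si_NC (-0.42 in the silencer pair).

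Among 6 other inhibitory immune ligands 1 was at least 2-fold higher in the pulldown (median 0.57), against 0 higher and 1 lower when rescaled and 0 when centred, and none was past 2-fold in si_LINC00882 (median 0.12). It was TGFB1, a suppressive cytokine, at 38.6 FPKM in the pulldown against 16.6 in input, and at 17.2 in si_LINC00882 against 13.4 in si_NC. CD47, which encodes the signal that restrains phagocytes, stood at 20.9 FPKM in the pulldown against 13.8 in input, and at 10.2 in si_LINC00882 against 11.2 in si_NC. Of 9 ligands that activate or adhere to NK and T cells 3 were at least 2-fold higher in the pulldown (median 0.70), among them ICAM1 at 111 FPKM in the pulldown and 32.9 in input, and the NKG2D ligand MICA at 29.9 FPKM in the pulldown and 11.3 in input. That count was 0 when rescaled and 1 when centred. None of 7 was past 2-fold in si_LINC00882 (median -0.00052). The NKG2D ligand MICB had the largest difference of that list in the silencer pair, at 14.6 FPKM in si_LINC00882 and 27.5 in si_NC (-0.86).

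For CD274, genes of the interferon-gamma route and other regulators of its transcript were listed. Of 18 measured genes 3 were at least 2-fold higher in the pulldown and none lower (median 0.21), and none of 19 was past 2-fold in si_LINC00882 (median -0.0043). In the pulldown pair 1 was higher and 2 of 19 lower when rescaled, and 1 was higher when centred. STAT3 stood at 14.5 FPKM in the pulldown against 5.84 in input, and at 15.5 in si_LINC00882 against 9.95 in si_NC, and the NF-kB subunit gene RELA at 9.42 FPKM in si_LINC00882 and 14.7 in si_NC (-0.59). MYC stood at 21.1 FPKM in the pulldown and 9.95 in input.

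Of 16 measured genes that act on PD-L1 protein 4 were at least 2-fold higher in the pulldown and none lower (median 0.54), a share near that of all genes, and none of 16 was past 2-fold in si_LINC00882 (median 0.0058). When rescaled, 0 were higher and 2 lower, and when centred 0 were past 2-fold. The 4 higher as deposited were HIP1R, which sorts PD-L1 to lysosomes (6.27 FPKM in the pulldown and 1.67 in input), the deubiquitinase genes OTUB1 (5.21 in the pulldown and 1.36 in input) and USP22 (62.5 in the pulldown and 27.1 in input), and CMTM4, whose protein stabilises PD-L1 (7.76 in the pulldown and 3.08 in input). In the silencer pair GSK3B, whose kinase marks PD-L1 for degradation, stood at 10.02 FPKM in si_LINC00882 and 7.38 in si_NC (0.40).

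Of 12 other complement regulators 3 were measured in the pulldown pair, none past 2-fold (median 0.24), and 1 in the silencer pair. That was C4BPB, a chain of C4b-binding protein, at 5.32 FPKM in the pulldown against 6.21 in input, and at 4.93 in si_LINC00882 against 6.29 in si_NC. Of 5 measured complement components and receptors 2 were at least 2-fold higher in the pulldown (median 0.73), and 2 when rescaled or centred, with 1 lower when rescaled, and none of 6 was past 2-fold in si_LINC00882 (median 0.11). C3, the central component that CD46 and CD55 act on, stood at 21.6 FPKM in the pulldown against 4.40 in input, and at 37.4 in si_LINC00882 against 41.2 in si_NC. CFB, a part of the alternative pathway convertase, stood at 10.2 FPKM in the pulldown against 1.28 in input, and at 7.07 in si_LINC00882 against 5.84 in si_NC.

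CD55 and CD59 need a GPI anchor to stay on the cell. Of 27 measured genes for making and attaching that anchor 3 were at least 2-fold higher in the pulldown and none lower (median 0.46, against 0.47 for all genes), and none of 25 was past 2-fold in si_LINC00882 (median 0.079). When rescaled, 1 was higher and 3 lower, and when centred 0 were higher and 1 lower. DPM1, a subunit of the mannose donor synthase, stood at 91.99 FPKM in the pulldown and 45.5 in input, and GPAA1, of the transamidase that attaches the anchor, at 11.95 FPKM in si_LINC00882 and 7.38 in si_NC (0.63). Of 18 other genes for GPI-anchored proteins 8 were at least 2-fold higher in the pulldown and none lower (median 0.88), with 4 higher when rescaled and 4 when centred, and none of 17 was past 2-fold in si_LINC00882 (median 0.021). LY6E, of the same Ly6 family as CD59, stood at 21.5 FPKM in the pulldown against 2.07 in input (2.87), and at 20.4 in si_LINC00882 against 22.3 in si_NC. BST2, the virus-tethering protein tetherin, stood at 162 FPKM in the pulldown against 60.9 in input (1.40), and at 57.3 in si_LINC00882 against 53.8 in si_NC. As with CD59, the pulldown was the highest library for BST2, while for LY6E the input was the one that stood apart.

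Of 18 other CD-numbered surface antigens 5 were at least 2-fold higher in the pulldown and none lower (median 0.55), and none of 16 was past 2-fold in si_LINC00882 (median 0.087). When rescaled, 0 were higher and 1 lower, and when centred 0 were past 2-fold. The 5 higher as deposited included the tetraspanin gene CD81, at 24.0 FPKM in the pulldown and 9.36 in input, and the receptor gene CD40, at 16.4 FPKM in the pulldown and 5.94 in input. With the pulldown pair rescaled without mitochondrial mRNAs, the medians of the B7 (0.38), nectin (0.12), activating ligand (0.14), complement component (0.064) and GPI-anchored protein (0.26) lists stayed above 0. Those of the other inhibitory ligands (-0.24), the interferon-gamma route (-0.59), PD-L1 handling (-0.21), other complement regulators (-0.24), GPI anchor synthesis (-0.26) and CD-numbered antigens (-0.23) turned to below 0. The members' median was -0.83 on that scale, where that of all genes was -0.27. That scale left the total of input above that of the pulldown, and the signs on a common total were not tested.

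**Figure D3:**
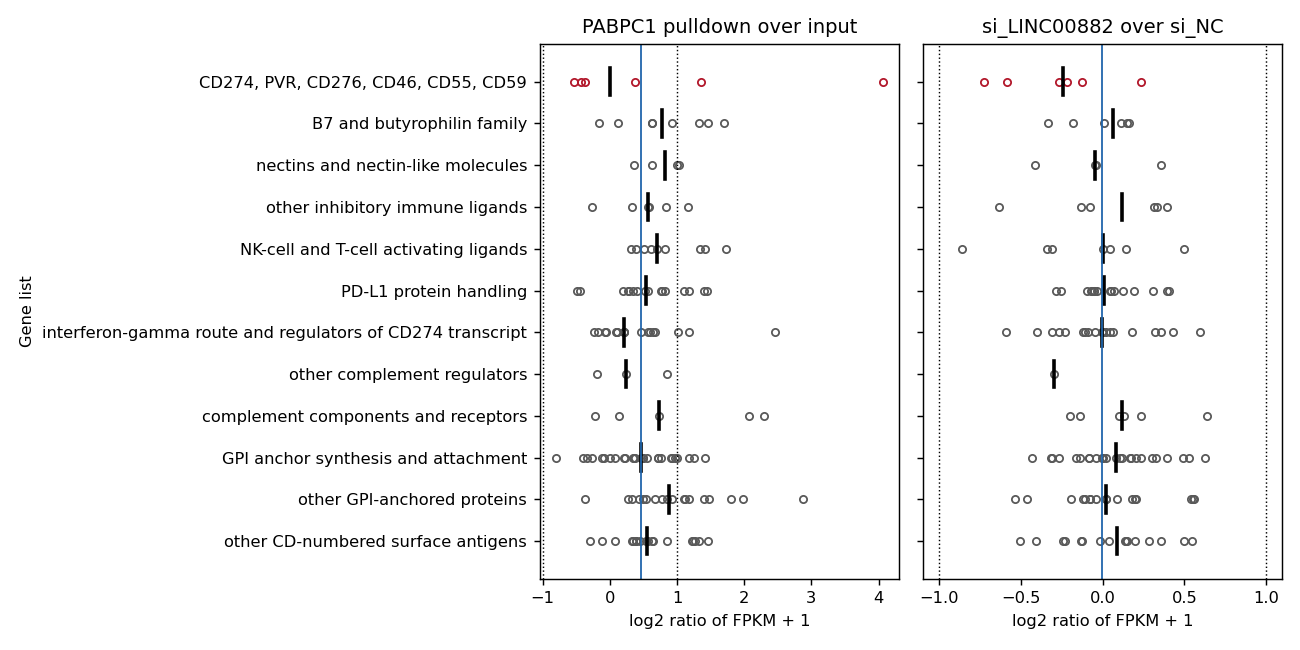
Log2 ratio of FPKM + 1 for each measured gene (circles) of the members (red, top row) and of 11 gene lists (grey), for PABPC1 pulldown over input on the left and si_LINC00882 over si_NC on the right, on axes of different length. Thick bars are list medians, the blue line is the median of all genes (0.47 on the left) and dotted lines mark 2-fold, which no gene of these lists passed on the right.

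Genes with the most similar profile were found by the root mean square difference of log2(FPKM + 1), centred on each gene's mean over the 4 libraries, among 7371 or 7372 genes of at least 5 FPKM in some library. For PVR the nearest were the readthrough gene SENP3-EIF4A1 (0.18), ZDHHC20 (0.33) and LYSMD3 (0.34), all lowest in input, where the first was listed at 0 and the others stood at 1.51 and 0.0787 FPKM. No gene lay within 0.1 of PVR. For CD59 the nearest were A4GALT (0.033) and FADS2 (0.048), and 22 genes lay within 0.1. A4GALT, for example, stood at 7.94 FPKM in the pulldown against 2.45 in input, and at 4.09 in si_LINC00882 against 3.07 in si_NC.

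For CD274 the nearest were COPS5 (0.021), ATG3 (0.031) and CUTA (0.031), and 109 genes lay within 0.1. COPS5, which was also in the list of genes that act on PD-L1 protein, stood at 7.37 FPKM in the pulldown against 10.7 in input, and at 6.94 in si_LINC00882 against 8.50 in si_NC. For CD276 they were SNX7 (0.043), HNRNPLL (0.056) and MTRR (0.062), for CD46 GSPT1 (0.018), CBX3 (0.027) and ZNRF2 (0.029), and for CD55 ZBTB1 (0.012), FGFR1 (0.013) and MRTO4 (0.016). Within 0.1 lay 14 genes for CD276, 97 for CD46 and 267 for CD55, so a flat profile such as that of CD55 in FPKM as deposited was shared by many genes. Among the members themselves the closest pair was CD274 and CD46 (0.083), with CD276 0.13 from both. PVR lay 1.23 to 1.75 from the other members. With 4 points per profile these distances are a description only.

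**Figure D4:**
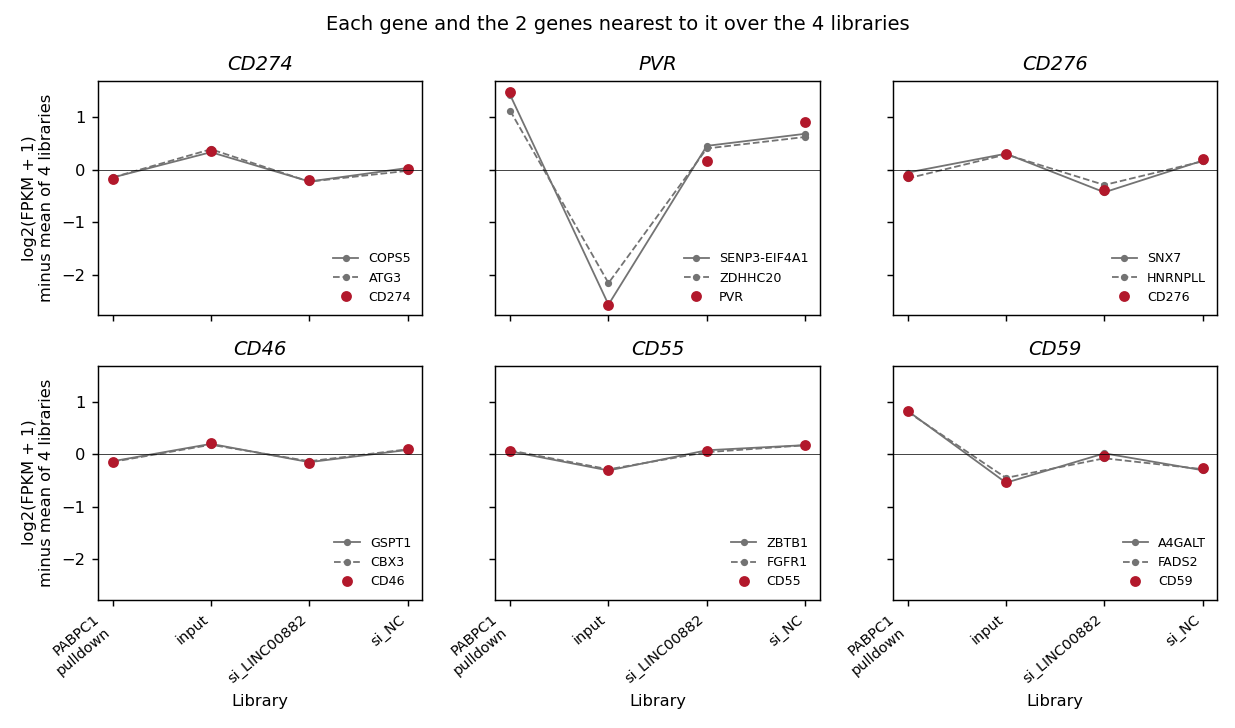
Log2(FPKM + 1) minus its mean over the 4 libraries, by library, for each of the 6 genes (red points, FPKM as deposited) and for the 2 genes with the smallest root mean square difference from it (grey lines). PVR and its nearest genes are lowest in input, CD59 and its nearest genes are highest in the pulldown, and CD55 and CD46 stay near 0.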

How the data were processed

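RNA was measured in 4 libraries of MDA-MB-231 cells, 1 per group, grouped by the treatment label. Values are FPKM as deposited, per the file headers, with 1 value for each gene in a library. HISAT2 2.1.0 and StringTie 1.3.3, with cutadapt 1.17, FastQC 0.11.7 and the GRCh37 build, are named in the submitters' processing notes, where no role is stated. Annotation, filters, use of strand and depth are not given there. Low FPKM values showed no shared step from which depth could be recovered, so no counting interval could be given.

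Ratios within each pair used a pseudocount of 1 FPKM and genes that reached 1 FPKM in one of the libraries, with no test. The text names the 6 members, up to 4 genes per list and comparison with the largest absolute ratio at 5 FPKM or more, and 3 similar genes per member without clone names. Of these, 2 genes are not reported here. Members, lists and rules were chosen with earlier results of these data known. Of 12113 symbols 11883 matched RefSeq (GRCh38.p14), used for names, overlaps and promoters. Scripts ran in Python 3.11.15 with pandas 2.3.3, numpy 2.4.6 and matplotlib 3.10.9. The steps were tested on simulated data.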

Additional observations from a re-analysis of the deposited data

How the results depend on the processing

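Of the members, 2 were at least 2-fold different between pulldown and input. That count stands against 21.9% of all genes in either direction. It was 1 with ratios centred on the median of all genes (15.0% of all genes) and 1 with a 3-fold rule (6.5%). It was also 1 over the si_NC library (9.64%) and 1 without PVR, whose span overlaps another listed gene (21.9%). With FPKM rescaled without mitochondrial genes, and library totals left unequal, it was 4 (21.7%). It stayed 2 with pseudocounts of 0.1 FPKM (33.7% of all genes) and 5 FPKM (6.92%) and with no minimum (20.3%). It was also 2 with a minimum of 5 FPKM (25.1%), where 5 members were tested, without CD274. With a 1.5-fold rule it was 2 as well, where 48.8% of all genes were past that rule. Between si_LINC00882 and si_NC the count of 0 became 1 (PVR) with a 1.5-fold rule (6.8% of all genes). CD276 fell just short of that rule, at a log2 ratio of -0.584. The count was also 1 (PVR) over input (25.1%), where the log2 ratio of PVR was 2.75, opposite in sign. In the silencer pair the count stayed 0 under the other alternatives, where 0.477% to 3.45% of all genes were called. Over the alternatives that kept the own control, the log2 ratio of PVR ran from 2.80 to 4.69 in the pulldown pair and from -0.76 to -0.61 in the silencer pair. That of CD59 ran from 0.55 to 1.45 and from 0.17 to 0.28, and that of CD55 in the pulldown pair from -0.46 to 0.39. For the change over the other control library the cause was not tested. No paired analysis was possible because each group holds 1 library. The precision of low levels, such as PVR in input, is unknown because depth is.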
